A study of Ictalurus punctatus and Ictalurus punctatus x Ictalurus furcatus with 18 samples.

Results

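The transcripts described here were 100 liver transcripts of catfish with more reads in the Delta Select strain than in the Red River strain of channel catfish, out of 144746 assembled transcripts. Each was chosen by its level in CPM, the reads on a transcript divided by all reads on transcripts of that library and multiplied by 1000000. A transcript qualified when its mean over 4 Delta Select libraries was at least 2 CPM and the lowest of these 4 exceeded the highest of 6 Red River libraries. Its mean in the 3 Delta Select libraries from high temperature also had to exceed 5% of the hybrid mean. Of 34814 transcripts with the required mean, 481 met the strain criterion and 480 the hybrid criterion as well. These were ranked by the ratio of the Delta Select mean to the Red River mean, with 0.05 CPM added to each, and the first 100 are the members. The difference between the strains was used to choose them and is therefore given as a description, without a test. The question put to the data was whether the hybrids share these transcripts.

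The study held 3 types of fingerling catfish for 6 weeks in water whose temperature cycled daily, and sequenced their liver RNA. The first type, called DS hybrid in the labels and hybrid here, is Ictalurus punctatus crossed with Ictalurus furcatus (channel catfish crossed with blue catfish) and carries the strain label Delta Select. The second, DSxDS, is channel catfish of the Delta Select strain, and the third, RRxRR, is channel catfish of the Red River strain. Each type was kept at a high regime of 32 to 36 °C or at a low regime of 27 to 31 °C, with 3 libraries in each of the 6 groups, 18 in all. RNA of 3 fish sharing a tank was pooled into each library, so the values describe tanks, and the p-values below measure the spread between tank pools. The letter of a library code gives its regime, H for high and L for low. Hybrids were H2, H6, H8, L1, L4 and L7, DSxDS were H3, H5, H9, L3, L5 and L8, and RRxRR were H1, H4, H7, L2, L6 and L9. Blue catfish were not analysed here, so the level of a member in the other parent species is not known from these values.

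As background, a hybrid of the first generation carries one copy of each gene from each parent species. Where only the copy from the channel catfish parent gives reads on a transcript, and it does so at the rate seen in that parent, the hybrid level lies midway between none and the parental level. The liver makes most plasma proteins and carries out much of the intermediate metabolism, and its RNA also includes that of blood and other cells in the tissue. In such bulk RNA, fewer cells of a type and less RNA per cell cannot be told apart. None of the 100 identifiers paired with a gene name (0 of all 144746 identifiers had a match among the 32344 channel catfish genes of the reference table, assembly Coco_2.0), so the functions and positions of the members were not determined, and neither the liver label nor any cell type could be checked against marker genes. An identifier is an assembled transcript and not a gene, and several members can be pieces or versions of 1 gene.

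Libraries held between 36242058 and 76146359 reads on transcripts. L3 and L5 stood apart from the other DSxDS libraries and were not used to choose the members. On 39 transcripts with at least 2 CPM in every hybrid library and under 0.1 CPM in every RRxRR library and the other 4 DSxDS libraries, the median level of L3 was 88.3% of the hybrid mean and that of L5 was 34.4%. The labels call both libraries DSxDS. Results that rest on them are given with and without them, and DSxDS means below are over H3, H5, H9 and L8 unless stated otherwise.

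The members were for the most part transcripts of a few CPM, with a moderate ratio between the strains. Over all 18 libraries, the median of the mean level was 2.86 CPM for members and 1.07 CPM for all transcripts tested. The minimum of 2 CPM in the rule sets part of that difference. The DSxDS mean was between 2 and 5 CPM in 59 members, between 5 and 20 CPM in 31 and at least 20 CPM in 10. The median over members was 3.11 CPM for the hybrid mean, 3.73 CPM for the DSxDS mean and 1.08 CPM for the RRxRR mean. The ratio of DSxDS to RRxRR was at least 10 in 13 members, between 5 and 10 in 16 and below 5 in 71, with a median of 3.58. Few members were close to absent in RRxRR, since the mean there was under 0.1 CPM in 4 and at least 1 CPM in 53, and no member lacked reads in all 6 RRxRR libraries. The margin between the strains was narrow for many, as the lowest DSxDS library was less than 1.2 times the highest RRxRR library in 27 members and at least 2 times in 26. At the threshold, k94:952700 and k74:1438481 were ranked 99 and 100 with a ratio of 2.23 each. The next 2 in rank, k94:692809 and k66:1835752, had 2.20 each and were not taken.

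The rank of the first member came from 1 library. Transcript k66:1869628, ranked 1 with a ratio of 166, had 4036, 10.8, 8.52 and 45.6 CPM in the DSxDS libraries H3, H5, H9 and L8. It had 5.08 and 6.14 CPM in L3 and L5. Its hybrid libraries ran from 3.45 CPM over a median of 4.60 to 6.51 CPM, and its RRxRR libraries from 4.87 over 6.26 to 7.77 CPM. H3 alone was high, L8 was several times the other libraries, and hybrids overlapped RRxRR. H3 held 98.4% of the summed DSxDS level of this transcript, and in 6 of the 100 members a single library held more than 50%. Over 16 libraries (L3 and L5 left out, group means removed), 7 other tested transcripts followed it at a correlation of at least 0.95, where H3 is the extreme point. L8, then alone in its group, added nothing to this correlation. Highest DSxDS levels were found in H5 for 41 members, in H9 for 22, in H3 for 20 and in L8 for 17.

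**Figure D1:**
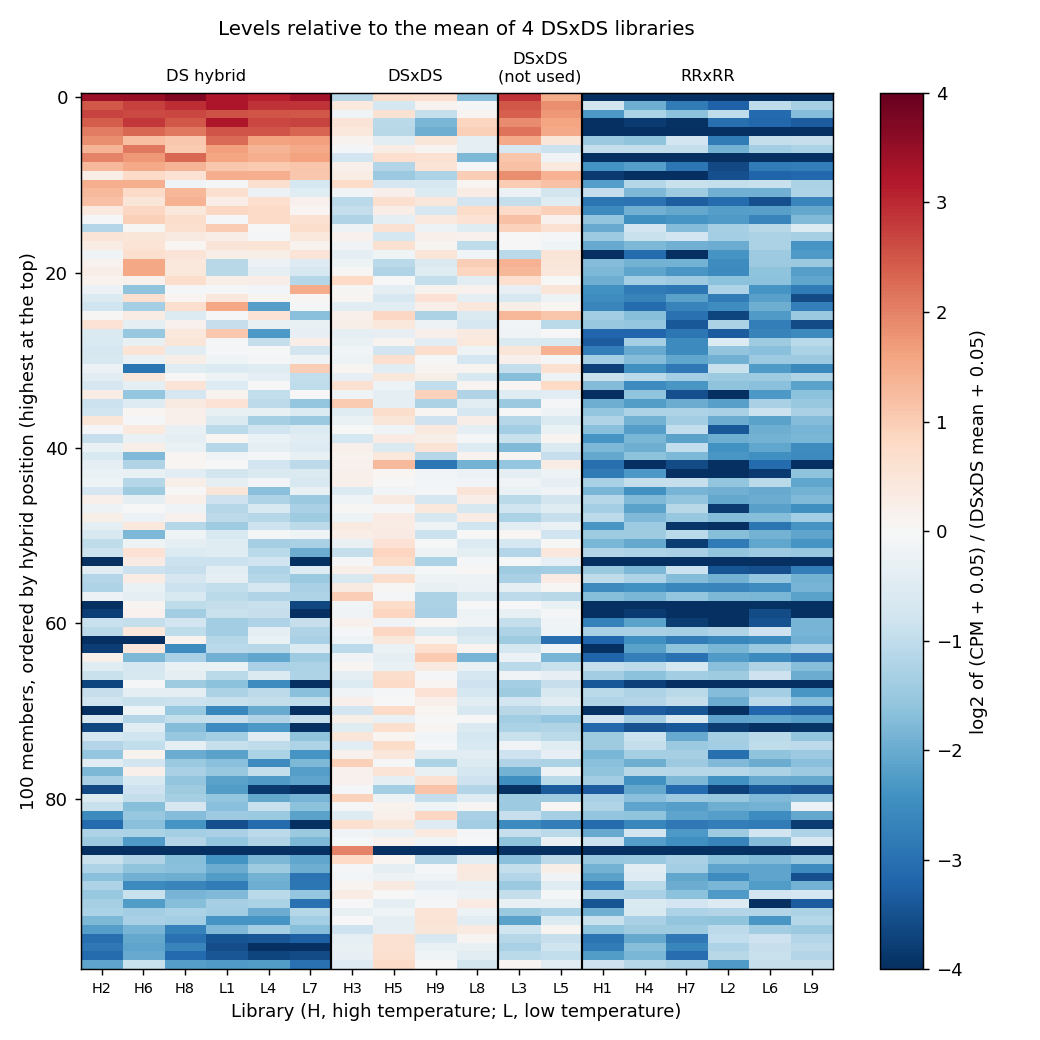
Levels of the 100 members (rows, ordered by the position of the hybrid mean) in the 18 libraries (columns), as log2 of the level over the mean of 4 DSxDS libraries after adding 0.05 CPM to both; the colour scale ends at -4 and 4. Hybrid columns are red for members at the top, near white in the middle and blue at the bottom, and RRxRR columns are blue for nearly all members because members were chosen to be lower there.

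Hybrid levels of the members ranged from below RRxRR to far above DSxDS. The position of the hybrid mean was computed on the CPM scale between the RRxRR mean (0) and the DSxDS mean (1). Over the 100 members it had a median of 0.586, with quartiles at 0.16 and 0.979 and extremes of -0.345 and 10.7. Both ends of the scale were used by the rule to choose and rank the members, so the position is not independent of the choice. For k66:1869628, whose DSxDS mean is set by H3, it was -0.001. The position was above 1 in 25 members, between 0.6 and 1 in 23, between 0.4 and 0.6 in 13, between 0.1 and 0.4 in 21 and below 0.1 in 18. In 14 members the hybrid mean was below the RRxRR mean. The members were therefore not gathered at the midpoint of this scale. That midpoint is not the level midway between none and the parental level, since the scale starts at the RRxRR mean. The median differed between single hybrid libraries, from 0.245 to 0.704 (SD 0.167 over 6 libraries). It was 0.568 when computed within the high regime and 0.547 within the low regime, where the DSxDS side is L8 alone. With a minimum of 5 CPM in place of 2 in the choice, the median was 0.302 over 100 transcripts, of which 41 were members. Of the members, 44 were at or above 0.5 in both regimes, 37 were below it in both and 19 crossed it. The 380 qualifying transcripts ranked after the members had a median position of 0.339, with 43.4% below 0.1 and 30.8% above 1.

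**Figure D2:**
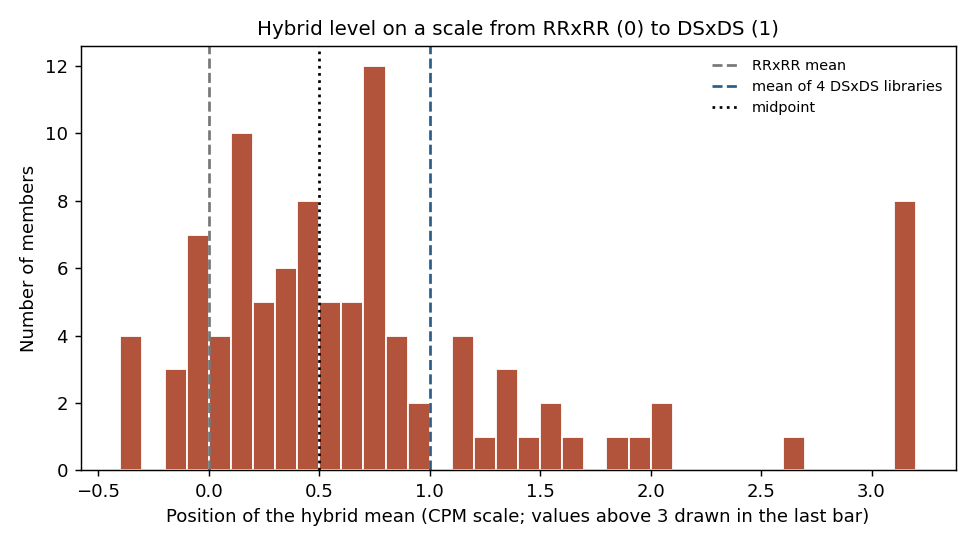
Number of members (vertical axis) by position of the hybrid mean between the RRxRR mean (0) and the mean of 4 DSxDS libraries (1), on the CPM scale without unit; the 8 members above 3 are drawn in the last bar. The members spread over the whole range with 25 beyond the DSxDS mean, and 13 of the 100 lie between 0.4 and 0.6.

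The rule fixes every RRxRR library below the 4 DSxDS libraries in the members, and it fixes nothing of the kind in other transcripts. The shares over all transcripts tested that follow are therefore given for scale, and the gap between them and the members' counts is set in part by the choice. Library by library, the lowest hybrid library exceeded the highest RRxRR library in 39 of the 100 members, against 12.4% of the 96799 transcripts tested, and the highest hybrid library was below the lowest RRxRR library in 0 members, against 9.54%. Against the 4 DSxDS libraries, all hybrids were lower in 24 members (11.5% of the transcripts tested) and all were higher in 9 (13.3%). Put together, hybrids stood above RRxRR and overlapped DSxDS in 28 members (2.31% of all tested), stood above both strains in 9 (10.1%), and stood above RRxRR and below DSxDS without overlap in 2 (0.00517%). They overlapped RRxRR while staying below DSxDS in 22 (5.27%), and overlapped both strains in the other 39 (69.6%). By definition, each of these 39 had 1 or more hybrid libraries within or below the RRxRR range. Also by definition, another hybrid library lay at or above the lowest DSxDS library, so this is no further result.

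The differences were tested with edgeR's quasi-likelihood test over all 96799 transcripts, where a call is an adjusted p under 0.05 and a log2 fold change of 1 is a doubling. Hybrids against RRxRR, averaged over both regimes, called 69 members higher, against 24.5% of all transcripts tested, and 3 lower, against 21.2%. The median log2 fold change was 1.64 over the members and -0.01 over all transcripts tested. The RRxRR libraries in this contrast are those that chose the members. A member that happened to be low in them had a better chance to be chosen. Neither the size of this difference nor its p-values, here or for single members below, are therefore independent of the choice. Within the high regime 61 members were called higher (17.7% of all tested) and 0 lower (13.2%), with 64 of the members at an unadjusted p under 0.05, against 41.6% of all tested. Within the low regime 54 were called higher (17% of all tested) and 3 lower (11.9%). The higher call was made in both regimes for 48 members, against 12.8% of all tested.

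Hybrids against DSxDS were compared in the high regime, where L3 and L5 do not enter the contrast. There 16 members were called higher in hybrids, against 17% of all transcripts tested, and 22 lower, against 12.5%, with a median log2 fold change of -0.49. The DSxDS libraries H3, H5 and H9 also chose the members, with the same limit on sizes and p-values. The 16 members higher than DSxDS were also called higher than RRxRR (15.5% of all tested), which the rule nearly fixes, since it puts DSxDS above RRxRR. A further 51 members were called higher than RRxRR with no call against DSxDS (8.92%), and 2 were called higher than RRxRR and lower than DSxDS (0.0145%). Another 17 had no call against RRxRR and were lower than DSxDS (2.14%), 3 were lower than both strains (10.4%), and 11 had no call in either comparison (50.7%). In these joint counts the calls against RRxRR are those averaged over both regimes. A missing call does not show that levels were equal.

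**Figure D3:**
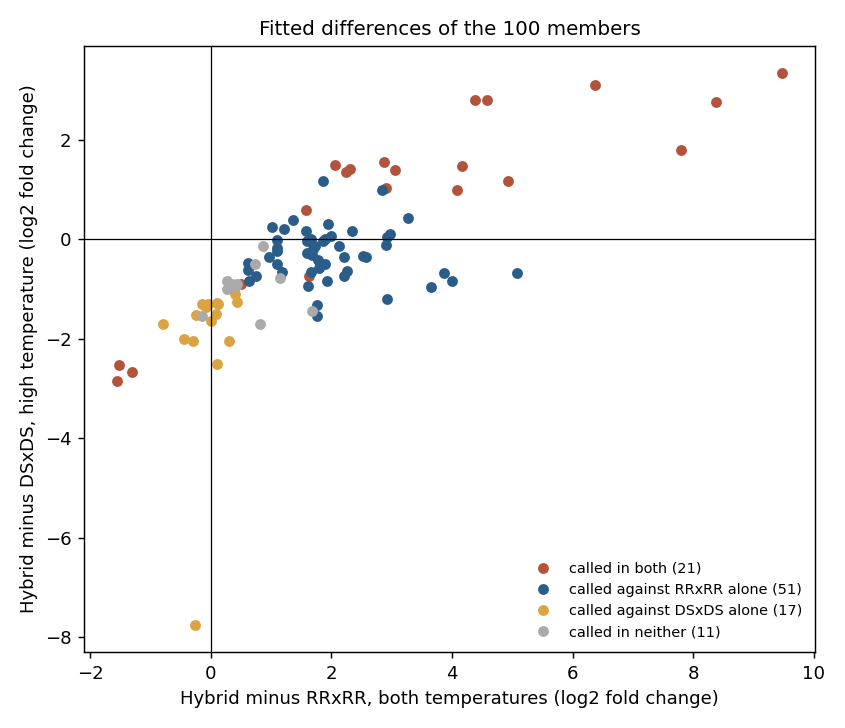
Fitted log2 fold change of each of the 100 members in hybrids against RRxRR over both regimes (horizontal axis) and in hybrids against DSxDS in the high regime (vertical axis), coloured by the calls of edgeR at an adjusted p under 0.05. Both axes share the hybrid libraries and both comparisons share libraries with the choice of members; 51 members were called against RRxRR alone, 21 in both, 17 against DSxDS alone and 11 in neither.

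Some members were far more abundant in hybrids than in either strain. Transcript k82:1066308 had 337, 341 and 401 CPM in hybrid libraries of the high regime and 290, 264 and 314 CPM in those of the low regime. It had 14.3, 50.3, 48.7 and 9.60 CPM in the DSxDS libraries H3, H5, H9 and L8, and between 0.296 and 0.800 CPM with a median of 0.442 CPM in the 6 RRxRR libraries. The 3 types did not overlap. Its log2 fold change was 9.47 ± 0.76 (SE) for hybrids against RRxRR (edgeR, adjusted p = 1.05e-06) and 3.34 ± 0.79 for hybrids against DSxDS in the high regime (adjusted p = 0.00701). The low strain value rests on few reads, since the 6 RRxRR libraries together held 121 reads of it.

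Transcript k90:1948100 had 703, 842 and 727 CPM in hybrids of the high regime and 964, 963 and 856 CPM in hybrids of the low regime. In DSxDS it had 226, 78.8, 43.4 and 330 CPM in H3, H5, H9 and L8, and in RRxRR it ran from 2.04 over a median of 2.55 to 3.77 CPM. Its hybrid level was the highest of all 100 members, with a mean of 842 ± 112 CPM (SD, n = 6) against 170 ± 133 CPM in DSxDS (n = 4) and 2.69 ± 0.65 CPM in RRxRR (n = 6). Hybrids and RRxRR differed by a log2 fold change of 8.38 ± 0.43 (SE; edgeR, adjusted p = 2.96e-08). Transcript k54:2677748 went with it over libraries, at a residual correlation of 0.963. It had 291, 381, 300, 509, 342 and 356 CPM in hybrids, against 77.1, 25.8, 15.2 and 97.9 CPM in DSxDS and 3.17 to 6.65 CPM in RRxRR. In both transcripts H3 and L8 were the higher DSxDS libraries and H9 the lowest, while all 6 hybrids stood above all 4 DSxDS libraries. For k54:2677748 the log2 fold change of hybrids against DSxDS in the high regime was 3.11 ± 0.47 (SE; edgeR, adjusted p = 0.000331).

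Hybrids were also on top in a member with almost no RRxRR reads. Transcript k90:1199776, chosen for mention after its values were seen, had 13.8 to 24.5 CPM in hybrids with a median of 16.1 CPM, against 2.90, 8.05, 7.67 and 1.40 CPM in DSxDS and at most 0.193 CPM in RRxRR. All 6 RRxRR libraries together held 20 reads of it. Hybrids were highest and RRxRR was close to absent, with DSxDS between them in every library. Like k82:1066308, it was higher in H5 and H9 than in H3 and L8, the reverse of the order seen in k90:1948100.

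At the middle of the range, the abundant member k94:1391249 stood nearly midway between RRxRR and DSxDS, with a position of 0.451. Its hybrid mean was 0.554 of the DSxDS mean. It had 34.9, 68.2, 45.1, 41.5, 51.9 and 33.4 CPM in hybrids, against 106, 86.2, 67.9 and 70.6 CPM in DSxDS and 13.4 to 22.7 CPM in RRxRR, with a median of 14.2 CPM. All hybrids were above all RRxRR libraries, and all but H6 were below all 4 DSxDS libraries. It was 1 of the 2 members called both higher than RRxRR (log2 fold change 1.63 ± 0.19, edgeR adjusted p = 4.12e-06) and lower than DSxDS (-0.73 ± 0.27, adjusted p = 0.0479). The second call was lost without L3 and L5, at the same fold change of -0.73 (adjusted p = 0.0631). Transcript k94:1388970, at a position of 0.574, had 3.40 to 11.4 CPM in hybrids with a median of 9.20 CPM, against 14.4, 15.1, 6.60 and 11.9 CPM in DSxDS and 2.73 to 5.63 CPM in RRxRR. There the hybrid library H6 lay within the RRxRR range, and H9 was the only 1 of these 4 DSxDS libraries below the hybrid median. L5, with 6.83 CPM, was also below it, and L3, with 12.5 CPM, was above it.

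A mean near the midpoint did not always stand for a middle level in each pool. Transcript k58:1812616, at a position of 0.484 and chosen for mention after its values were seen, had 0.0424, 3.75, 1.60, 1.59, 1.69 and 0.0548 CPM in the hybrid libraries H2, H6, H8, L1, L4 and L7. DSxDS had 2.86, 4.97, 1.19 and 2.79 CPM, and RRxRR had at most 0.101 CPM. H2 and L7 thus fell in the range of RRxRR, while the other 4 hybrids fell within the range of DSxDS. The members k50:2870821 and k66:1790053u varied in a similar way, with residual correlations of 0.975 to 0.986 among the 3, and both were likewise low in H2 and L7. In k50:2870821 these 2 libraries had 0.0848 and 0.137 CPM and the other hybrids 1.09 to 2.45 CPM.

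Uneven hybrid pools occurred in several further members. Transcript k86:841000, also chosen after its values were seen, had 6.23, 3.23, 12.6, 19.7, 1.87 and 7.48 CPM in hybrids, against 7.10, 7.48, 10.8 and 12.1 CPM in DSxDS and 0.883 to 1.55 CPM in RRxRR. Hybrids exceeded RRxRR in every library but spread on both sides of DSxDS. Transcripts k74:1414409 and k66:1815697 followed it from library to library, at residual correlations of 0.946 to 0.970. A group of k78:897233u, k66:1152807 and k62:1351808 was highest in H6 among hybrids and lowest in L7, at 0.0822 CPM in each of the 3 transcripts. L7 held 36476619 reads on transcripts, so that level is a few reads and the equality of the values carries no weight. The pair k86:834255 and k70:1635480 was uneven in RRxRR, with 0.0276 to 4.99 CPM and 0.0552 to 1.74 CPM, both lowest in L2 and highest in L9.

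Counted over members, 11 of the 4950 pairs had a residual correlation of at least 0.95 (0.222%), which joined 17 members into 7 groups. Pairs of a member with any other tested transcript reached this in 0.000683%. These correlations are over 16 libraries, in which all transcripts share the same library totals. L8 was alone in its group, so removing the group mean left it no residual and it added nothing to them. Whether the members of a group are pieces of 1 gene was not tested. Among members with a hybrid mean of at least 2 CPM, the highest hybrid library was a median of 2.39 times the lowest (65 members), against 1.56 times over 34399 tested transcripts, and 20% of these members differed over 4-fold between hybrid libraries, against 4.12%. In RRxRR the same medians were 2.03 times (31 members) and 1.58 times, with 16.1% and 4.27% over 4-fold. Beyond that minimum, the tested transcripts were not matched to the members in level, and the libraries of each type span both regimes. These spreads are therefore given for scale.

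**Figure D4:**
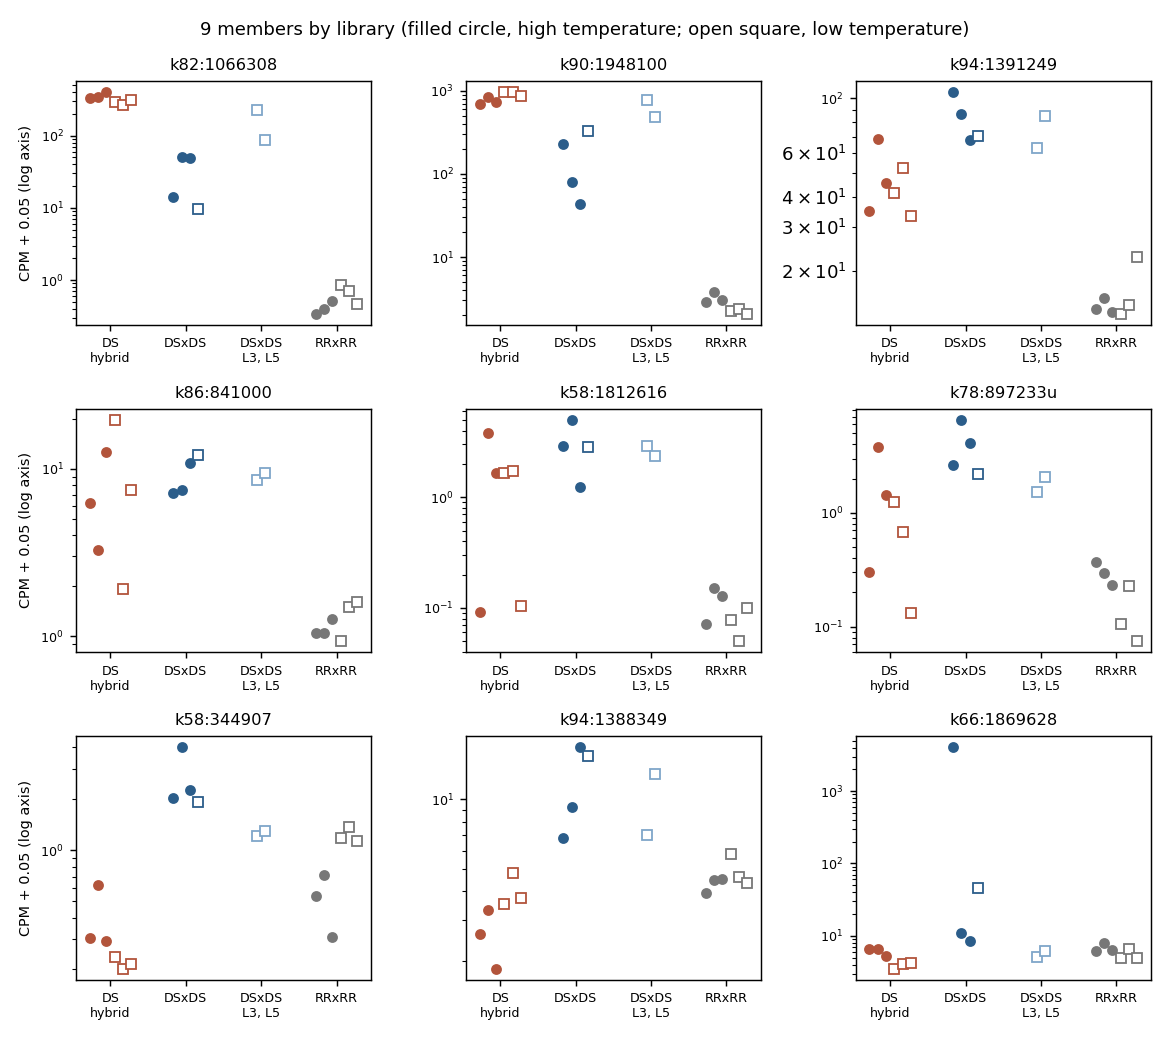
CPM with 0.05 added (log axis) of 9 members in each library of hybrids, DSxDS, the DSxDS libraries L3 and L5, and RRxRR; filled circles are high-regime and open squares low-regime libraries. The top row shows hybrids above RRxRR and the 4 DSxDS libraries used in the choice (k82:1066308, k90:1948100), and mostly between them (k94:1391249). In k90:1948100 the DSxDS library L3 lies within the hybrid range. The middle row shows hybrid libraries spread over a wide range. The bottom row shows hybrids below those 4 DSxDS libraries, with H3 alone near 4036 CPM in k66:1869628.

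At the low end, 3 members were called lower in hybrids than in RRxRR over both regimes and than in DSxDS in the high regime. None of the 3 was called lower than RRxRR within the high regime. Transcript k50:2842693 had 1.97, 3.38 and 2.30 CPM in hybrids of the high regime and 1.22, 0.781 and 0.713 CPM in hybrids of the low regime. DSxDS had 12.0, 22.6, 12.2 and 11.8 CPM, and RRxRR had 2.07, 4.48 and 2.33 CPM in the high regime and 6.24, 7.65 and 7.03 CPM in the low regime. Hybrids overlapped RRxRR in the high regime and were far below it in the low regime. Its log2 fold change of hybrids against RRxRR was -1.51 ± 0.27 (SE; edgeR, adjusted p = 0.000336) over both regimes, -0.24 in the high regime (adjusted p = 0.656) and -2.78 in the low regime (adjusted p = 0.000186).

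Transcript k58:344907 showed the same order at a lower level, with 0.152 to 0.576 CPM in hybrids, 1.97, 3.95, 2.19 and 1.87 CPM in DSxDS and 0.259 to 1.31 CPM in RRxRR. It differed by -1.55 ± 0.31 between hybrids and RRxRR (log2 fold change ± SE; edgeR, adjusted p = 0.000411) and by -2.85 ± 0.37 between hybrids and DSxDS in the high regime (adjusted p = 4.19e-05). The difference from RRxRR was -0.46 in the high regime (adjusted p = 0.422) and -2.63 in the low regime (adjusted p = 0.00029). Transcript k62:2024830, the third of these, had 0.186 to 0.576 CPM in hybrids, 1.97, 3.91, 1.61 and 2.75 CPM in DSxDS and 0.296 to 1.41 CPM in RRxRR, with a difference of hybrids from RRxRR of -0.13 in the high regime (adjusted p = 0.865) and -2.48 in the low regime (adjusted p = 0.00137). In all 3, H5 was the highest DSxDS library and H6 the highest hybrid library.

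Of the 28 members with no call against RRxRR, 17 were called lower than DSxDS in the high regime. Transcript k94:1388349, chosen after its values were seen, had 1.80 to 4.75 CPM in hybrids with a median of 3.37 CPM, against 6.76, 9.21, 16.7 and 15.4 CPM in DSxDS and 3.88 to 5.74 CPM in RRxRR. Its log2 fold change against DSxDS in the high regime was -2.01 ± 0.34 (SE; edgeR, adjusted p = 0.000544). The DSxDS libraries in that comparison also chose the members, so neither value is independent of the choice. For k66:1869628 the fitted log2 fold change of hybrids against DSxDS was -7.75 ± 2.09 (SE; edgeR, adjusted p = 0.0150). Without H3 it was -0.59 (adjusted p = 0.608), so that call rests on 1 library.

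The DSxDS libraries L3 and L5, which took no part in the choice, give further values of that strain, limited by their composition and by the RRxRR libraries, which the rule forced to be low in the members and not in other transcripts. L3 exceeded the highest RRxRR library in 67 members, against 25% of all transcripts tested, and L5 in 86, against 20.4%. Both did so in 65 members, against 13.9%. L3 reached the lowest of the 4 DSxDS libraries in 48 members and L5 in 68. No share of all transcripts tested is given for reaching that library, so these counts are no result about the members. On a scale from the DSxDS mean (0) to the hybrid mean (1), L3 had a median of 0.832 and L5 of 0.470 over the 24 members with all hybrids below DSxDS. Over the 9 members with all hybrids above DSxDS, the medians were 0.714 for L3 and 0.226 for L5. In k82:1066308, L3 had 229 CPM and L5 had 86.0 CPM, both above the other DSxDS libraries and both below every hybrid. The medians of L3 were nearer the hybrid end than those of L5 on members of both kinds. Single members ran from -0.111 to 1.63 in L3 and from -0.261 to 1.59 in L5 over the 24. Over the 9 they ran from -0.191 to 0.902 in L3 and from -0.232 to 0.461 in L5. The 4 libraries that set the 0 were required to be high in the members, and in the 24 to exceed every hybrid. L3 and L5 met no such requirement, so their medians over the 24 are set in part by the choice. How much of the share of members above RRxRR in L3 and L5 goes with levels toward the hybrids cannot be told apart from the strain.

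In RRxRR and DSxDS, temperature calls among the members were about as frequent as among all transcripts tested, which is no result about the members, and in hybrids there were none. In hybrids, high against low temperature called 0 members by edgeR, against 2.95% of all transcripts tested. Of the members, 15 had an unadjusted p under 0.05, against 14.99% of all tested. DESeq2 called 6 and limma-voom 0, without a share of all tested beside them, so these counts are no result about the members. The median log2 fold change in hybrids was 0.20. In RRxRR 3 members were called higher at high temperature (3.75% of all tested) and 2 lower (2.34%), with a median of 0.16. In DSxDS 6 were called higher (5.66% of all tested) and 6 lower (7.19%), with a median of 0.32, and without L3 and L5 there were 0 calls by edgeR against 2.82% of all tested, with 12 members at an unadjusted p under 0.05, against 16.6%. DSxDS at low temperature is then L8 alone, which is assumed to vary like the other groups. The rule used 3 high and 1 low DSxDS library, so the temperature effect in DSxDS is not independent of the choice. With all libraries, the DSxDS median over all transcripts tested was -0.006. Without L3 and L5 it was 0.04 over all transcripts tested and 0.16 over the members. No member was called for temperature in both RRxRR and DSxDS. The fitted direction was the same in all 3 types for 45 members, up in 35 and down in 10, and without L3 and L5 up in 31 and down in 14.

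The clearest temperature difference among RRxRR libraries was that of k78:1250054, with 3.08, 2.43 and 4.75 CPM at high temperature and 0.745, 0.705 and 1.23 CPM at low temperature. Its log2 fold change was 1.98 ± 0.45 (SE; edgeR, adjusted p = 0.0160). In hybrids it had 6.26, 4.73 and 4.55 CPM at high temperature and 6.48, 3.67 and 6.03 CPM at low temperature, which overlap. In DSxDS it had 10.2, 7.35 and 8.12 CPM in H3, H5 and H9 and 8.94 CPM in L8, which the rule places above every RRxRR library. L3 and L5, not used by the rule, had 3.16 and 3.29 CPM, below the 4.75 CPM of the RRxRR library H7. Transcript k50:1785297 rose in RRxRR by a log2 fold change of 1.35 ± 0.35 (adjusted p = 0.0265).

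In the other direction, transcript k62:2039545 had 0.992, 1.93 and 0.960 CPM at high temperature and 3.20, 6.07 and 3.47 CPM at low temperature in RRxRR, with a log2 fold change of -1.61 ± 0.41 (SE; edgeR, adjusted p = 0.0309). Its hybrid level of 21.3 ± 3.99 CPM (SD, n = 6) and its DSxDS levels of 12.9, 14.9, 23.5 and 15.5 CPM overlapped each other. Both stood above all RRxRR libraries, which for these DSxDS libraries is fixed by the rule. Transcript k62:2024830 fell in RRxRR by 1.57 on the log2 scale (adjusted p = 0.0426), and this call was lost on leaving out any 1 of the RRxRR libraries H1, H7, L2, L6 and L9 or of the hybrid libraries L1, L4 and L7. Of the 5 calls in RRxRR, leaving out H7 gave 0, L2 gave 1, and H1, L6 or L9 gave 2.

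In DSxDS none of the 12 calls was made without L3 and L5, when 1 low library was left, and the number of calls was 28 without L8. Without L8 the low DSxDS libraries were L3 and L5 alone. No share of all transcripts tested is given for that setting, so the 28 calls are no result about the members. The fitted change was smaller without L3 and L5 in 8 of the 12 members and at least as large in the other 4. Transcript k82:1073283 had 8.98, 7.80 and 3.95 CPM at high temperature and 0.936, 0.801 and 2.16 CPM in L3, L5 and L8. Its log2 fold change was 2.30 ± 0.46 (SE; edgeR, adjusted p = 0.00495), and 1.48 without L3 and L5 (adjusted p = 0.213). L3 and L5 lay within the hybrid range of this transcript, 0.219 to 1.75 CPM. Transcript k50:333209 had a log2 fold change of 1.44 with them (adjusted p = 0.0151) and 0.85 without (adjusted p = 0.324).

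Both members named for a lower level at high temperature in DSxDS were called higher in hybrids than in DSxDS in the high regime. For k90:1948100, L3 and L5 had 766 and 480 CPM, and the log2 fold change of temperature in DSxDS was -2.25 ± 0.46 (SE; edgeR, adjusted p = 0.00659) with them and -1.70 without (adjusted p = 0.168). Transcript k74:962443 had 4.53, 1.28 and 1.52 CPM in DSxDS at high temperature and 13.4, 9.76 and 7.30 CPM in L3, L5 and L8, with L3 above every hybrid library. Its log2 fold change of temperature was -2.11 ± 0.36 (adjusted p = 0.00156) with L3 and L5 and -1.74 without (adjusted p = 0.0708).

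**Figure D5:**
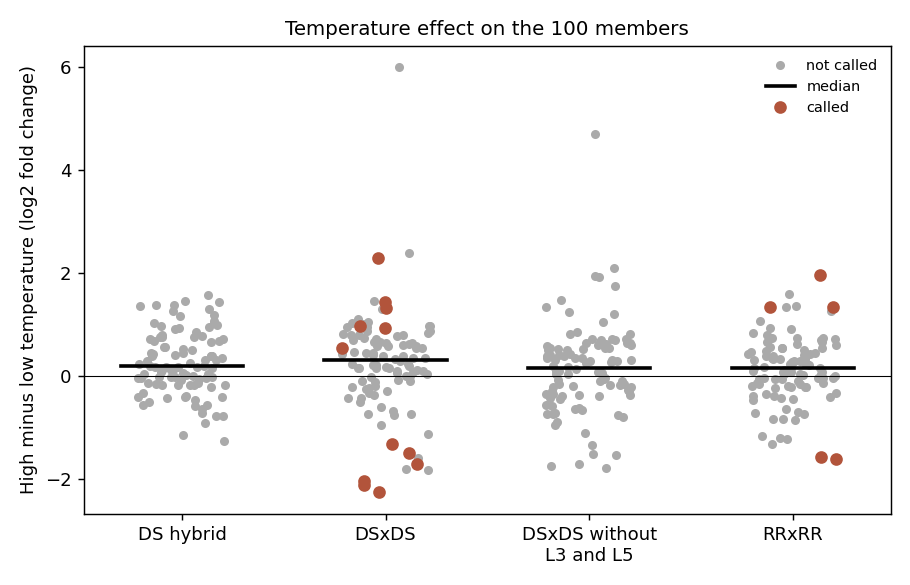
Fitted log2 fold change of high against low temperature of the 100 members (points) in hybrids, DSxDS, DSxDS without L3 and L5, and RRxRR, with the median as a bar and members called by edgeR at an adjusted p under 0.05 in red. Called members number 0 in hybrids, 12 in DSxDS, 0 in DSxDS without L3 and L5, and 5 in RRxRR, and all medians lie between 0.16 and 0.32.

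Differences between types in the response to temperature were tested by interaction terms. For hybrids against RRxRR, edgeR called 0 members, against 0% of all transcripts tested, with 10 members at an unadjusted p under 0.05 (5.805% of all tested), 1 called by DESeq2 and 0 by limma-voom. For DSxDS against RRxRR it called 0 members, against 0%, with 15 members at an unadjusted p under 0.05 (11.6% of all tested), 3 called by DESeq2 and 0 by limma-voom. Without L3 and L5 it called 0 members, against 0.0351%, with 17 at an unadjusted p under 0.05 (8.95%). Members called for temperature in 1 type are therefore not shown to respond differently from the other types. The DESeq2 and limma-voom counts stand without a share of all tested and are no result about the members.

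The form of the identifiers, a k-mer size and a number, set the members little apart. The k-mer size had a median of 74 over the members and of 70 over all transcripts tested, and it was at least 80 in 34% of members and 31.6% of tested transcripts.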

How the data were processed

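Per the labels' protocols, 18 tank pools of liver RNA were read from a single end over 50 bases. A table deposited by the authors holds raw counts of reads on 144746 transcripts, and the other holds normalized signal, which equals the deposited count divided by 1 factor per library and was used only as an alternative. The submitters' processing notes name R 3.1.0, DESeq 1.12.1 and Bowtie2 2.1.0 but not what each was used for. Assembly, counting, strand and the treatment of reads shared by several transcripts are not stated in any source used. Reads shared by near-identical transcripts, or by both parental species, make the count of a single identifier uncertain. A row naming no transcript, with 24.2% to 25.6% of the reads, was left out. Library totals were 36242058 to 76146359 reads, and precision is lowest for members with few reads.

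CPM were computed from the deposited counts without further scaling. Tests used edgeR 4.0.16 (R 4.3.3): TMM scaling, filterByExpr over the 6 groups (minimum count 10, minimum total 15; 96799 transcripts kept, all 100 members among them), 1 mean per group over all 18 libraries, robust quasi-likelihood F-tests and Benjamini-Hochberg adjustment over all tested transcripts. A member was called at an adjusted p under 0.05. Standard errors came from the F statistic. DESeq2 1.42.0 and limma 3.58.1 were alternatives, beside other filters, scalings and left-out libraries. The method was run on simulated counts, with the same spread assumed for every transcript, no outlying library and none like L3 and L5. That run does not bear on calls resting on such libraries, and its outcome is not given here. Residual correlations used log2(CPM + 0.5) with group means removed. Replicates are tank pools, and library codes pair no libraries.

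The members and lists were chosen with earlier results of these data known. At most 2 members in each direction were named per contrast, those of the largest fitted change among called members, preferring libraries without overlap. The first 2 ranks, the ranks at the threshold, the 2 positions nearest 0.5 among the 20 members of highest DSxDS mean and the member of highest DSxDS mean were named too. Others named are marked as chosen after their values were seen, or belong to groups that ran together. Lists of marker genes could not be applied, because identifiers carry no gene names. Transcript sequences were not used here.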

Additional observations from a re-analysis of the deposited data

Results flagged for a closer look

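Among the members named above, 4 had fitted temperature effects of opposite direction in 2 types, with high and low libraries not overlapping within each type. The difference itself was tested by edgeR's interaction term, and no such test reached an adjusted p under 0.05. For k90:1948100 the temperature effect on the log2 scale differed by -1.02 between hybrids and RRxRR (adjusted p = 0.923) and by -2.87 between DSxDS and RRxRR (adjusted p = 0.203). For k58:344907 it differed by 2.17 between hybrids and RRxRR (adjusted p = 0.647) and by 2.02 between DSxDS and RRxRR (adjusted p = 0.203). For k50:2842693 the differences were 2.54 between hybrids and RRxRR (adjusted p = 0.474) and 1.88 between DSxDS and RRxRR (adjusted p = 0.229). For k62:2024830 the difference was 2.35 between hybrids and RRxRR (adjusted p = 0.686). Without L3 and L5, the differences between DSxDS and RRxRR were -2.32 for k90:1948100 (adjusted p = 0.404), 1.54 for k58:344907 (adjusted p = 0.427) and 1.35 for k50:2842693 (adjusted p = 0.526). Groups held 3 libraries each, too few for a test of single outlying libraries.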

How the results depend on the processing

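The numbers of members called higher or lower in hybrids against RRxRR over both regimes and in hybrids against DSxDS stayed within 1.5 times under all 26 alternatives, at 63 to 70 higher and 3 to 4 lower against RRxRR, and 12 to 17 higher and 15 to 27 lower against DSxDS. Leaving out 1 library at a time gave 41 to 60 members higher than RRxRR in the high regime, 39 to 55 in the low regime and 0 to 1 lower in the high regime, and fitting only the compared groups gave 1 lower there. With 1 library left out, the lowest hybrid exceeded the highest RRxRR library in 39 to 44 members, and the median position was 0.505 to 0.659. Over all alternatives, which include other choices and numbers of transcripts, these ranges were 27 to 74 transcripts and 0.302 to 0.715. Temperature calls depended on the settings, and the cause was not tested. The call counts that follow stand without the share of all transcripts tested in each setting, so they are no result about the members. In hybrids (0 calls) there were 2 with a mean of at least 50 reads, 6 with DESeq2, 2 without L3 and L5, 6 with only the compared groups and 0 to 2 with 1 library left out. In RRxRR (5 calls) there were 2 with no filter, 9 with DESeq2, 12 with only the compared groups and 0 to 7 with 1 library left out, namely 0 without H7, 1 without L2 and 2 without H1, L6 or L9. In DSxDS (12 calls) there were 0 without L3 and L5, 1 with only the compared groups and 8 to 28 with 1 library left out, 28 without L8. DESeq2 called 1 member for the interaction of hybrids and RRxRR and 3 for that of DSxDS and RRxRR, where leaving out 1 library gave 0 to 5, namely 5 without L8 and 1 without H3. Requiring 5 CPM in the choice of members gave a median position of 0.302, and taking the first 200 transcripts gave 74 with hybrids above RRxRR. Of the 100 members, 94 were shared with a choice on TMM-scaled CPM, 95 with 0.5 CPM added in the ranking and 41 with a minimum of 5 CPM. No paired analysis was possible because the library codes pair no libraries. In the contrast that named it, no member's fold change changed direction in these alternatives. In other contrasts some did. The log2 fold change of temperature in DSxDS was -1.586 for k82:1066308 with all libraries and 1.765 without L3 and L5. For k78:1250054 it was 0.6045 and -0.2638. Without L3 and L5 the low DSxDS side is L8 alone.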
